A study of Mus musculus with 6 samples.

Results

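The genes described here are the protein-coding entries of the deposited count table that carry no gene symbol, only an identifier of the C57BL/6NJ strain annotation. They were chosen by 4 conditions: the biotype protein coding, an identifier of that annotation, a name that only repeats the identifier, and at least 60 counts summed over the 6 libraries. Of 41972 entries in the table, 20461 were coding, 1075 of these had no symbol, 495 of those had at least 1 count, and 297 met the minimum. The members with the fewest counts had 60, 60 and 61, and the next entries below the minimum had 58 and 51. All 297 also passed the filter on low counts that preceded the tests. RNA came from bone-marrow-derived macrophages of wild-type male C57BL/6 mice aged 6 weeks, grown from marrow for 6 days with 20% serum and 30% L-929-conditioned medium, which supplies the growth factor M-CSF. These macrophages then spent 6 h with either PBS or 20 µg per well of extracellular vesicles (EVs), membrane-bound particles that cells shed, prepared from the mould Aspergillus flavus. Both EV groups, LD-F1 and LD-F1_b, are called strains in the sample titles. The sources used here do not explain the suffix. Each of the 3 groups held 2 libraries, called biological replicates. Whether these came from separate mice or cultures is not stated, so p-values measure the spread between these libraries.

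An entry without a symbol is easy to lose, because lists and pathway tables are matched by symbol. Many of these entries are well-known genes nonetheless. Vegfa encodes the secreted factor that drives growth of blood vessels and is made by activated macrophages. Txnrd1 encodes the selenium-containing reductase that keeps thioredoxin reduced in the cytosol, and Uhrf1 encodes the factor that brings the maintenance methyltransferase to newly copied DNA. In dividing cells, genes of DNA copying such as Uhrf1 and Clspn are switched on together before S phase by transcription factors of the E2F family. Macrophages that sense microbial material commonly raise genes of inflammation, interferon response and redox defence.

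The promoters of 5 members called with LD-F1 EVs are shown so that the letters can be read beside the values below. These 5 windows were picked, with the matches known, because each holds a motif. They were taken from RefSeq in build GRCm38.p6 and run from 250 bases before to 50 bases after an annotated start. Of the 297 members, 207 matched a gene with such a window, which gave 202 distinct genes and 277 windows. Capitals mark matches, on either strand, to the E2F motifs TTTCGCGC and TTTGGCGC, the AP-1 motif TGANTCA, the amino-acid response motif TGATGNAA, the antioxidant response motif TGACNNNGC and the hypoxia response core ACGTG. AP-1 and antioxidant matches can share bases. Clspn is shown from chr4:126556730-126557029 (plus strand), Uhrf1 from chr17:56304063-56304362 (plus), Upp1 from chr11:9117853-9118152 (plus), Txnrd1 from chr10:82858956-82859255 (plus) and Pgk1 from chrX:106186850-106187149 (plus).
Clspn: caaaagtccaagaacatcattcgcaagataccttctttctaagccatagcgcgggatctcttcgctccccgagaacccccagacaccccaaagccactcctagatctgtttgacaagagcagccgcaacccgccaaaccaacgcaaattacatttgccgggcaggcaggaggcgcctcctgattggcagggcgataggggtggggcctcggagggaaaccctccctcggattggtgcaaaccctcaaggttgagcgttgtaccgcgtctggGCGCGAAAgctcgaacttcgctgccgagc
Uhrf1: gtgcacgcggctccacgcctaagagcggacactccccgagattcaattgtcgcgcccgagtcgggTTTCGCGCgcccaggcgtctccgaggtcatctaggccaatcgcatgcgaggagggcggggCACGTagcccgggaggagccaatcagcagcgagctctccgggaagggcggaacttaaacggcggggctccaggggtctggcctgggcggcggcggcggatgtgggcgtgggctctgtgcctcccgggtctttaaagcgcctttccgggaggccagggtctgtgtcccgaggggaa
Upp1: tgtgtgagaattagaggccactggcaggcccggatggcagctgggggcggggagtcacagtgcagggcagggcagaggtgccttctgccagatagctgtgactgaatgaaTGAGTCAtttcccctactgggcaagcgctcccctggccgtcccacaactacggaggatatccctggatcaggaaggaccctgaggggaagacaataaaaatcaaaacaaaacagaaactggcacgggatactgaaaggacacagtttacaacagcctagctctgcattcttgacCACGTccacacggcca
Txnrd1: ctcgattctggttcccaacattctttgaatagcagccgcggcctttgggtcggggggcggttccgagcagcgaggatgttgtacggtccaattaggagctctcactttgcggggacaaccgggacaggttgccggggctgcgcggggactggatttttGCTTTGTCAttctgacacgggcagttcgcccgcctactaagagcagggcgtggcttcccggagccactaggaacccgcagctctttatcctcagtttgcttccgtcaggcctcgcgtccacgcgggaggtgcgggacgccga
Pgk1: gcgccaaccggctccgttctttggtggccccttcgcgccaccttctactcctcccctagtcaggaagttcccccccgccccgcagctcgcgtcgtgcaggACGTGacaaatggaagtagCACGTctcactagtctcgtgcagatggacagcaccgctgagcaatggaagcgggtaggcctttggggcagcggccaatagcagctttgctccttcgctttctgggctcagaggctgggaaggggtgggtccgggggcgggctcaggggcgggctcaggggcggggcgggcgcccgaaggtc

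An E2F motif stood in 4 of the 277 member windows (1.44%), against 0.813% of all 32851 RefSeq windows. The Clspn and Uhrf1 windows above held TTTCGCGC, the former on the opposite strand, and the window of Lrp1 held TTTGGCGC. The other Uhrf1 window held none of the 6 motifs, nor did the windows of Polq, Stard9, Pou2f2 and Ube2l6. AP-1 matches stood in 5.42% of member windows against 7.81% of all windows, and in windows of Upp1, Mndal and Ubb among members higher with LD-F1 EVs. The antioxidant motif stood in 15.9% of member windows against 12.4% of all, among them 1 of 3 windows of Txnrd1. The short core ACGTG stood in 29.2% against 19.6%, including 2 matches in Pgk1 and 1 in 1 of 2 Vegfa windows, and the amino-acid response motif in 2.17% against 3.97%. A match is a description of letters and shows no binding.

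The identity of the members came from the protein matches deposited with the table. Of 297 members, 277 had a matched protein, 219 of them of mouse and 58 of another species (27 human, 19 bovine), and 20 had none. A gene name was given for 274, with 264 distinct names, and 258 of the named members had a name that no other entry carried as its symbol. Gene names below are these matches and not symbols of the table. Vegfa, for example, was recognised through a hamster protein and Hspa8 through a bovine one. Of the genes looked for, Cebpd was not a member: the entry described as this transcription factor was annotated as a pseudogene, on chromosome 16 from 13140283 to 13141463 in the positions of the table. It had 715 and 655 counts with PBS, 1131 and 1430 with LD-F1_b EVs, and 1379 and 1819 with LD-F1 EVs, and it rose by 1.40 ± 0.14 (SE, log2 scale) with LD-F1 EVs (edgeR adjusted p = 1.99e-05) and by 1.01 ± 0.14 with LD-F1_b EVs (adjusted p = 0.000584).

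The median member was shorter and less abundant than the median coding entry with a symbol, a difference given as a description. Their median length was 3339 bases against 3971 for 10233 coding entries with a symbol and at least 60 counts, and their median total was 2170 counts against 3438. Per kilobase of gene length, the median member had 6.59 CPM (counts scaled to a common library size and for library composition) against 9.5. Chromosome 7 held 39 members, 13.1% of them, against 7.57% of the coding entries with a symbol. Together the members took 3.06% and 3.13% of all counts in the PBS libraries, 3.02% and 3.11% with LD-F1_b EVs, and 3.10% and 3.01% with LD-F1 EVs, so the groups overlapped. The group means were 3.10 ± 0.0438% (SD, n = 2), 3.06 ± 0.0628% and 3.05 ± 0.0613% in that order.

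Libraries held 13722215 to 15277997 counts, so a floor of 3 counts came to 0.196 to 0.219 CPM, and floors and intervals of counts cover counting error only. Macrophage markers, with 11 of 12 listed genes found in the table, summed to 3180 to 3190 CPM with PBS, 3470 to 3580 with LD-F1_b EVs and 3500 to 3510 with LD-F1 EVs. The marker Itgam was itself reached only through a member: its entry without a symbol had 13724 counts, while the entry that bears the symbol Itgam had 7. Neutrophil markers summed to at most 1.5 CPM with S100a9, Elane, Ly6g, Retnlg and Ngp at 0, T and NK cell markers to at most 1.04 with Cd3e, Cd3d, Ncr1 and Klrb1c at 0, and B cell markers to at most 0.63 with Ms4a1 at 0. The 6 dendritic cell markers, with Siglech at 0, summed to 2.9 to 3.26 CPM with PBS, 6.15 to 7.16 with LD-F1_b EVs and 8.89 to 8.99 with LD-F1 EVs. The 4 endothelial markers summed to 47.9 to 54.7, 37.2 to 38.2 and 27.2 to 35.6 CPM in that order. The 4 megakaryocyte markers, with Gp9 at 0, summed to 5.98 to 7.57, 8.22 to 8.34 and 8.99 to 11.3 CPM, and the 6 markers of fibroblasts and stroma, with Dcn at 0, to 1.63 to 1.64, 2.07 to 2.16 and 2.35 to 2.92 CPM. The part of these differences in the results below was not tested.

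With LD-F1 EVs, 34 members were higher and 25 lower than with PBS by the quasi-likelihood test of edgeR at an adjusted p under 0.05, which is what "rose" and "fell" mean below. These 59 were 19.9% of the members, against 21.2% of all 12740 genes tested. Split by direction they were 11.4% and 8.42%, against 11.4% and 9.87%, shares near those of all genes. An unadjusted p under 0.05 was found for 96 members (32.3%), against 33.1%. Fpr2 and MGP_C57BL6NJ_G0018739, among the 34, reached 60 counts only through the EV libraries, so that the rule itself favoured a rise. The same held, by a small margin, for Upp1. The LD-F1 libraries lay wholly above or wholly below the PBS libraries for 167 members (56.2%), against 59.5% of all genes. The median log2 fold change was -0.005 over the members and 0.006 over all genes. With library totals alone as the scale, the median of all genes was -0.099 and the split of calls turned to 25 higher and 39 lower. Without PBS replicate 1 or 2, 29 or 34 members were called, and without LD-F1 replicate 1, 98 were.

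**Figure D1:**
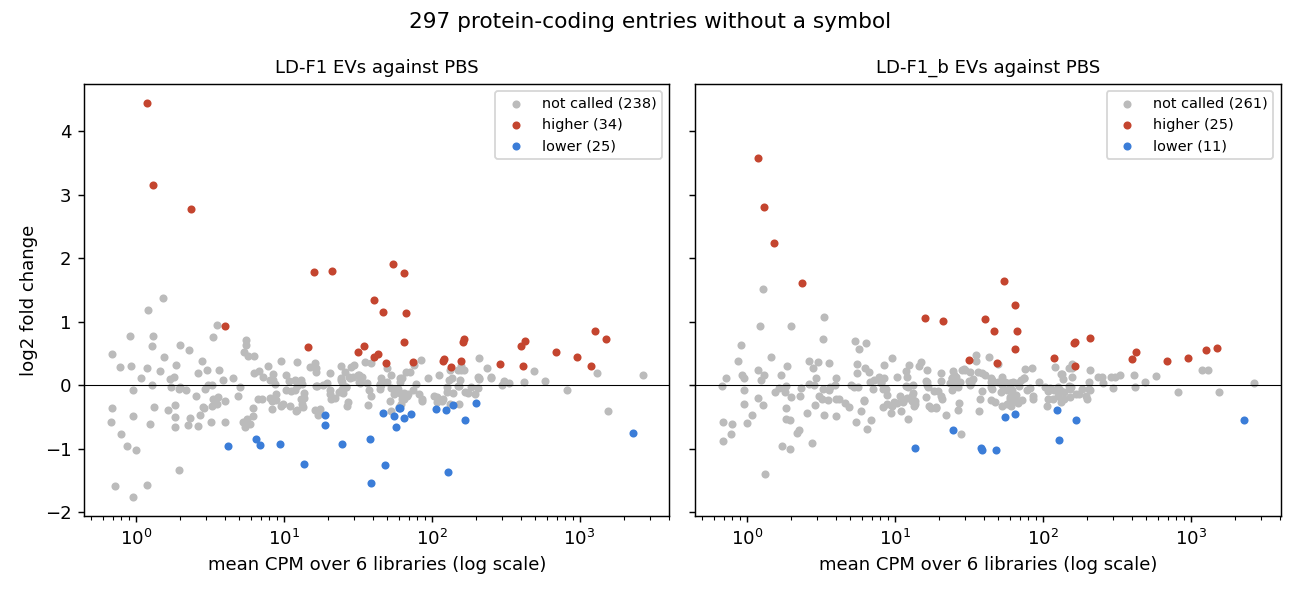
Log2 fold change (vertical axis) against mean CPM over the 6 libraries (horizontal axis, log scale) for the 297 members, with LD-F1 EVs (left) and LD-F1_b EVs (right) against PBS. Red and blue points are members called higher and lower, 34 and 25 on the left and 25 and 11 on the right, and grey points were not called.

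Vegfa was among the strongest risers. Its entry (MGP_C57BL6NJ_G0024205, chromosome 17 from 49098338 to 49113975, C57BL/6NJ positions of the table) stood at 31.5 and 25.5 CPM with PBS, 70.1 and 67.3 with LD-F1_b EVs, and 93.2 and 101.0 with LD-F1 EVs. The 3 groups did not overlap, and PBS was lowest. Vegfa rose 3.42-fold with LD-F1 EVs (1.77 ± 0.12 on the log2 scale, SE, with 2 libraries a group; adjusted p = 9.71e-07). With LD-F1_b EVs it rose 2.41-fold (1.27 ± 0.12, adjusted p = 3.34e-05). In bulk RNA a change in the number of expressing cells and a change in RNA per cell cannot be told apart. Of 10 listed relatives and receptors of VEGF, 5 could be tested, and 2 rose with LD-F1 EVs against a background of 11.4%. They were the co-receptor genes Nrp1 (0.46 ± 0.08, adjusted p = 0.00146) and Nrp2 (0.36 ± 0.11, adjusted p = 0.0389), and without any 1 of the LD-F1_b, PBS or first LD-F1 libraries 1 was called. The receptor gene Flt1 was at 0.06 ± 0.25 with LD-F1 EVs and rose by 1.09 ± 0.24 with LD-F1_b EVs (adjusted p = 0.0107), but 0 genes of the list were called with LD-F1_b EVs without PBS replicate 2 or either LD-F1_b library. The ligand gene Vegfb was at -0.06 ± 0.12 and -0.21 ± 0.12.

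Txnrd1 was the sixth most abundant member by CPM and rose as well. Its entry (MGP_C57BL6NJ_G0017981, chromosome 10 from 86542749 to 86582605) stood at 916 and 861 CPM with PBS, 1330 and 1290 with LD-F1_b EVs, and 1680 and 1550 with LD-F1 EVs, again without overlap between groups. The changes were 0.86 ± 0.08 (1.82-fold, adjusted p = 1.88e-05) with LD-F1 EVs and 0.56 ± 0.08 (1.47-fold, adjusted p = 0.00111) with LD-F1_b EVs. Without PBS replicate 2 the latter was 0.51 with an adjusted p of 0.0518. Of 20 other genes of the thioredoxin and glutathione system, 15 rose and 0 fell with LD-F1 EVs (median 0.52), 12 with library totals alone and 11 without either PBS library. The list was chosen with earlier results of these data known, and 11.4% of all genes tested were higher with LD-F1 EVs. The cystine transporter gene Slc7a11 rose by 1.61 ± 0.13, the sulfiredoxin gene Srxn1 by 1.01 ± 0.09 and the peroxiredoxin gene Prdx1 by 1.02 ± 0.09. The close relatives of Txnrd1 were not called: Txnrd2, the mitochondrial reductase, was at 0.23 ± 0.12 and Txnrd3 at 0.01 ± 0.19.

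Several selenoproteins, which carry selenocysteine, were members. Of 24 listed genes of selenoproteins and their synthesis, 19 had a coding entry, 8 of them with a symbol and 11 without, and 8 of the 11 were members. Apart from Txnrd1, 0 of the 8 were called with LD-F1 EVs. Selenof, of the endoplasmic reticulum, was at 0.27 ± 0.09 (adjusted p = 0.0555), Sephs2, which makes the selenium donor, at 0.13 ± 0.09 and Selenow at 0.16 ± 0.16. Selenop, the secreted selenium carrier, was at -0.57 ± 0.33 on 353 counts in all. Of the other redox members, Glrx3, a glutaredoxin of iron handling, rose by 0.29 ± 0.09 (adjusted p = 0.0403), a call lost with library totals alone, under DESeq2 and without any 1 of the PBS or LD-F1_b libraries (adjusted p = 0.0928 to 0.431).

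Members of DNA replication, DNA methylation and mitosis mostly fell. Of 14 members described so, 8 fell and 1 rose with LD-F1 EVs, with a median log2 fold change of -0.62 against 0.006 over all genes and a background of 9.87% lower. The 8 were Clspn, Uhrf1, Stard9, Polq, Kifc1, Cntrob, Tyms and Usp1. Without PBS replicate 1 or 2, 4 or 6 of the 14 fell, without LD-F1 replicate 1 10 did, and with library totals alone 8 did. These roles were assigned by hand after the values were known and are no independent evidence of a direction. A class formed by keywords in the protein names, for replication, repair and cell cycle, held only 5 members. Of these, 1 rose and 1 fell with LD-F1 EVs (median -0.01), against 11.4% and 9.87% of all genes. The fall thus depends on the grouping by hand.

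Uhrf1 (MGP_C57BL6NJ_G0024329, chromosome 17 from 60255404 to 60282819) stood at 202 and 197 CPM with PBS, 108 and 112 with LD-F1_b EVs, and 84.5 and 71.0 with LD-F1 EVs. PBS was highest and the groups did not overlap. The changes were -1.36 ± 0.10 with LD-F1 EVs (adjusted p = 1.93e-06) and -0.86 ± 0.10 with LD-F1_b EVs (adjusted p = 0.000157). Clspn encodes claspin, an adaptor of the replication checkpoint. Its entry (MGP_C57BL6NJ_G0029207, chromosome 4 from 133134935 to 133175567) stood at 63.1 and 64.8 CPM with PBS, 30.7 and 32.2 with LD-F1_b EVs, and 24.7 and 19.6 with LD-F1 EVs. It fell by 1.53 ± 0.13 and 1.02 ± 0.12 on the log2 scale with LD-F1 and LD-F1_b EVs (adjusted p = 4.9e-06 and 0.000238), the lowest value among called members in both comparisons. Polq, an error-prone polymerase of break repair, stood at 20.8 and 21.5 CPM with PBS, 10.1 and 11.4 with LD-F1_b EVs, and 11.2 and 6.83 with LD-F1 EVs. Here both EV groups lay below PBS and overlapped each other (-1.23 ± 0.21, adjusted p = 0.00118, and -0.98 ± 0.20, adjusted p = 0.0087), and the latter call ended without any 1 of the PBS or LD-F1_b libraries (adjusted p = 0.0549 to 0.14). Stard9, a kinesin of the mitotic spindle, stood at 75.6 and 76.8 CPM with PBS, 39.4 and 36.3 with LD-F1_b EVs, and 40.5 and 23.5 with LD-F1 EVs. Its changes were -1.25 ± 0.20 (adjusted p = 0.00126) and -1.01 ± 0.19 (adjusted p = 0.00789), and the LD-F1 libraries differed more from each other than the LD-F1_b libraries did. The LD-F1_b call of Stard9 ended without any 1 of the PBS or LD-F1_b libraries as well (adjusted p = 0.057 to 0.105), and its entry overlaps Cdan1 on the opposite strand.

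Tyms, the thymidylate synthase that makes a DNA precursor, stood at 25.1 and 22.0 CPM with PBS and 15.3 and 15.2 with LD-F1 EVs (-0.63 ± 0.15, adjusted p = 0.00918). Without PBS replicate 1 its change was -0.53 with an adjusted p of 0.13. Usp1, a deubiquitinase of DNA repair, fell with both EV preparations by 0.39 ± 0.09 and 0.38 ± 0.09 (adjusted p = 0.00634 and 0.0131), and the calls ended without either PBS library and, with LD-F1_b EVs, also without either LD-F1_b library. Kifc1, a kinesin, fell by 0.95 ± 0.29 and Cntrob, a centriole protein, by 0.84 ± 0.22 with LD-F1 EVs (adjusted p = 0.0348 and 0.0163), and without PBS replicate 1 their adjusted p-values were 0.274 and 0.187. Kifc1 also lost its call without PBS replicate 2, LD-F1 replicate 2 or LD-F1_b replicate 2 and under DESeq2. The exception was Cdk6, a cyclin-dependent kinase, at 3.0 and 3.02 CPM with PBS and 6.45 and 5.05 with LD-F1 EVs (0.93 ± 0.27, adjusted p = 0.0273). That entry is 400 bases long, overlaps the entry with the symbol Cdk6 and held 18.2% of the counts of all entries described as Cdk6. Without LD-F1 replicate 1 or either PBS library its adjusted p was 0.0947 to 0.155. The methyltransferase member Dnmt3b was at -0.30 ± 0.29 on 310 counts.

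Listed genes of the same pathways, nearly all with a symbol and chosen with earlier results of these data known, were counted beside them. Among all genes tested, 9.87% were lower with LD-F1 EVs and 4.54% with LD-F1_b EVs. All 20 listed replication genes linked to E2F, of which Tyms is the only member, fell with LD-F1 EVs (median -0.83), 15 and 17 without PBS replicate 1 and 2. With LD-F1_b EVs 15 fell (median -0.53), and 5, 8, 6 and 8 without LD-F1_b replicates 1 and 2 and PBS replicates 1 and 2. Of 16 tested genes of DNA methylation and its maintenance, which leave out Uhrf1 and include the member Dnmt3b, 3 fell with LD-F1 EVs, namely Dnmt1, the maintenance methyltransferase (-1.0 ± 0.09), the helicase gene Hells (-1.05 ± 0.09) and the ligase gene Lig1 (-1.0 ± 0.10). Dnmt3l, a cofactor of new methylation, rose by 0.87 ± 0.15. With library totals alone 6 of the 16 fell, and 7 and 5 without LD-F1 replicates 1 and 2. Uhrf2, the paralogue of Uhrf1, was at -0.02 ± 0.09.

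**Figure D2:**
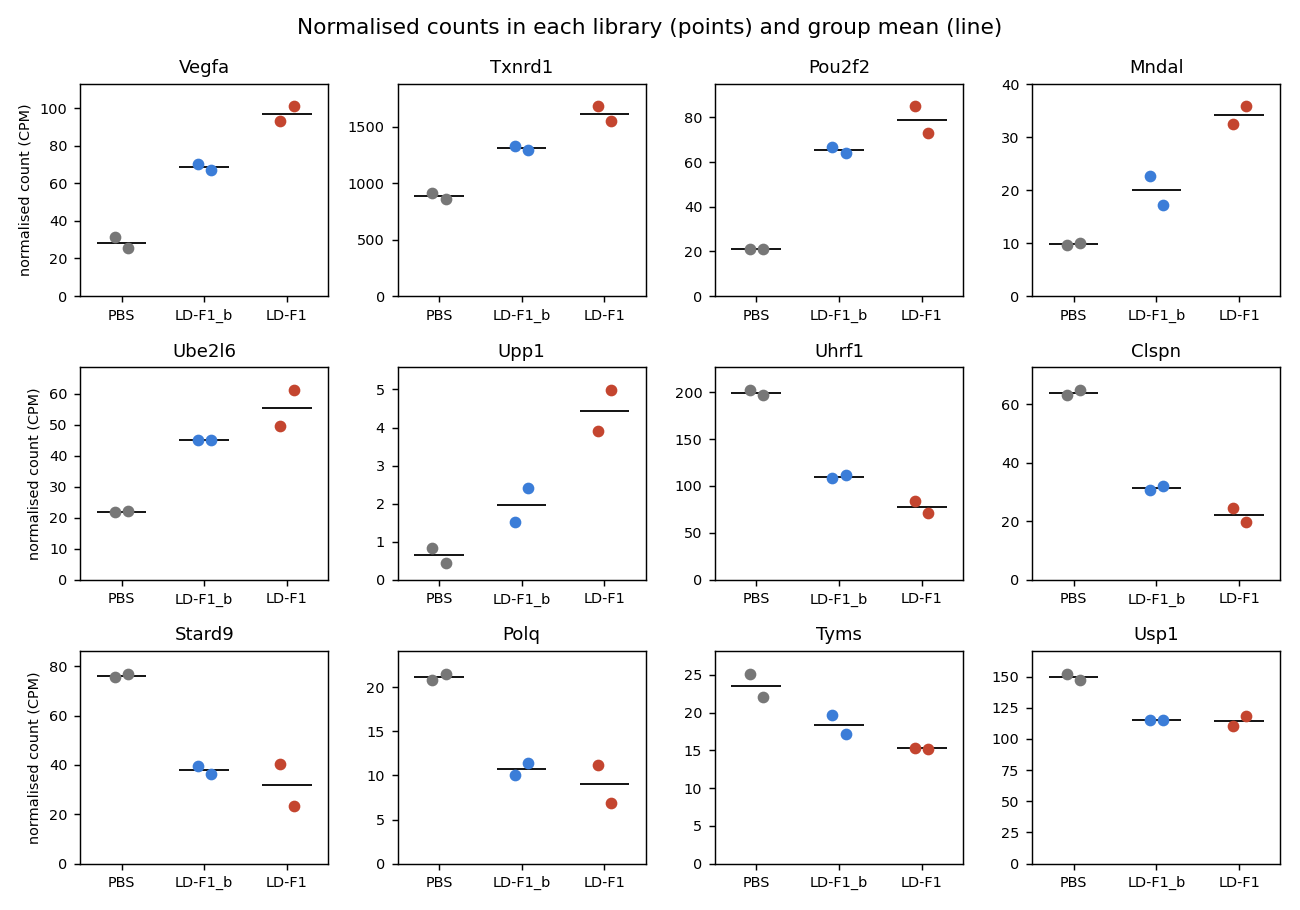
Normalised counts (CPM, vertical axis from 0) of 12 members in each library (points) with the mean of the 2 libraries of a group (line), by group. Vegfa, Txnrd1, Pou2f2, Mndal, Ube2l6 and Upp1 lay lowest with PBS, and the replication members Uhrf1, Clspn, Stard9, Polq, Tyms and Usp1 lay highest with PBS.

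Transcription factors and chromatin proteins were the largest class, with 48 members, of which 1 rose and 5 fell with LD-F1 EVs, or 1 and 8 with library totals alone. The share lower was near the 9.87% of all genes. The riser was Pou2f2, which encodes OCT-2, a factor of B cells and activated macrophages. It stood at 21.1 and 20.9 CPM with PBS, 66.8 and 64.0 with LD-F1_b EVs, and 84.9 and 73.0 with LD-F1 EVs, with no overlap between groups. It rose 3.76-fold with LD-F1 EVs (1.91 ± 0.11, adjusted p = 4.14e-07) and 3.11-fold with LD-F1_b EVs (1.64 ± 0.11, adjusted p = 3.91e-06), against B cell markers of at most 0.63 CPM in sum. The 5 that fell were Usf2, Nacc1, Samd1, Ankrd12 and Stat5a, from -0.94 ± 0.23 for Usf2 to -0.46 ± 0.15 for Stat5a. Without PBS replicate 1 or 2, 1 of the 48 fell. The Usf2 entry held 13.2% of the counts described as Usf2 and overlaps another entry on the opposite strand, so its value is uncertain. Among all genes tested, 11.4% were higher with LD-F1 EVs and 6.44% with LD-F1_b EVs. Of 8 tested genes listed as C/EBP relatives of the Cebpd entry and their partners, 5 rose with both EV preparations. Over the 8 genes the median was 1.02 with LD-F1 EVs and 0.68 with LD-F1_b EVs. The 5 risers were Cebpb, Cebpg and Ddit3 and the partner genes Atf4 and Nfil3. Among them were Cebpb (1.14 ± 0.16 and 0.64 ± 0.16) and Ddit3 (2.09 ± 0.15 and 1.78 ± 0.15), while Cebpa was at -0.37 ± 0.14 and -0.35 ± 0.14, and Cebpe and Cebpz were not called either. With LD-F1_b EVs 3 rose without either PBS library.

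Of 5 members linked to interferon, a role assigned by hand after the values were seen, 3 rose with LD-F1 EVs and 0 fell (median 1.34). Among all genes tested, 11.4% were higher. Mndal, of the interferon-inducible family that senses DNA, stood at 9.66 and 9.95 CPM with PBS, 22.7 and 17.2 with LD-F1_b EVs, and 32.5 and 35.8 with LD-F1 EVs. It rose by 1.80 ± 0.16 and 1.02 ± 0.16 with LD-F1 and LD-F1_b EVs (adjusted p = 9.67e-06 and 0.0018). Its entry overlaps Ifi203, a gene of the same family, on the same strand, so reads may have been shared. Ube2l6, which conjugates the ubiquitin-like ISG15, stood at 21.8 and 22.2 CPM with PBS, 45.2 and 45.2 with LD-F1_b EVs, and 49.8 and 61.2 with LD-F1 EVs (1.34 ± 0.12, adjusted p = 1.32e-05, and 1.04 ± 0.12, adjusted p = 0.000245). Sp100, a nuclear body protein, rose by 1.15 ± 0.12 and 0.86 ± 0.12 (adjusted p = 3.74e-05 and 0.000821), and its entry held 44.7% of the counts described as Sp100, from 33.3% to 52.4% between libraries. Trim12a was called higher by edgeR with LD-F1_b EVs alone (2.24 ± 0.48, adjusted p = 0.0109) and was at 1.37 ± 0.51 with LD-F1 EVs (adjusted p = 0.0807). It had 131 counts in all and reached 60 only through the EV libraries. The rule itself thus favoured a rise, and these values are given as a description. The direct difference between the EV groups for Trim12a was not called (adjusted p = 0.621), and its call ended without either PBS library or LD-F1_b replicate 1.

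Of 15 receptors and adhesion proteins of the cell surface, 4 were called higher and 2 lower with LD-F1 EVs, against 11.4% and 9.87% of all genes. The 4 include Lilrb4 and Gp49a, whose entries overlap, and Fpr2, whose selection favoured a rise. Lrp1, the large endocytic receptor and the second most abundant member, stood at 3100 and 3000 CPM with PBS, 2140 and 2010 with LD-F1_b EVs, and 2180 and 1450 with LD-F1 EVs. It fell by 0.75 ± 0.15 with LD-F1 EVs (adjusted p = 0.00632), by 1.08 without LD-F1 replicate 1 and by 0.49 without LD-F1 replicate 2. With LD-F1_b EVs the change was -0.55 ± 0.15 (adjusted p = 0.0459), with adjusted p-values of 0.156 to 0.277 without any 1 of the PBS or LD-F1_b libraries. Csf2rb, the shared receptor chain for GM-CSF and related cytokines, stood at 218 and 208 CPM with PBS and at 171 and 120 with LD-F1 EVs (-0.55 ± 0.13, adjusted p = 0.0121). That call ended without either PBS library (adjusted p = 0.0904 and 0.0507). With LD-F1_b EVs Csf2rb stood at 152 and 142 CPM (-0.54 ± 0.13, adjusted p = 0.0228), a call that ended without any 1 of the PBS or LD-F1_b libraries.

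Lilrb4 and Gp49a, neighbouring receptor genes of the immunoglobulin superfamily on chromosome 10, rose by 0.73 ± 0.11 and 0.68 ± 0.09 with LD-F1 EVs (adjusted p = 0.000637 and 0.000153). With LD-F1_b EVs they rose by 0.68 ± 0.11 and 0.66 ± 0.09 (adjusted p = 0.0023 and 0.000419), the former lost without LD-F1_b replicate 1 (adjusted p = 0.0778). Their entries overlap on the same strand, so their values are not separate measurements. Fpr2, which senses formylated peptides, had 4 and 3 counts with PBS, 19 and 28 with LD-F1_b EVs, and 26 and 31 with LD-F1 EVs. Scaled to library size, the ratio to PBS was 9.27 with LD-F1 EVs (95% interval 4.22 to 24.1) and 7.26 with LD-F1_b EVs (3.26 to 19.0), given as a description since Fpr2 reached 60 counts only through the EV libraries. The integrin genes Itgam (0.24 ± 0.09, adjusted p = 0.0751) and Itgax (0.14 ± 0.12) were not called.

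Among enzymes of metabolism, Upp1 breaks down uridine. It stood at 0.848 and 0.441 CPM with PBS, 1.53 and 2.42 with LD-F1_b EVs, and 3.9 and 4.98 with LD-F1 EVs, on 199 counts in all, so that its mean reached 2 CPM only through the EV libraries. Its selection thus favoured a rise, and its values are given as a description. By edgeR it was called higher with LD-F1 EVs (2.77 ± 0.44, 6.84-fold, adjusted p = 0.000796). With LD-F1_b EVs its change was 1.61 ± 0.47 (adjusted p = 0.0484), which ended without any 1 of the PBS or LD-F1_b libraries (adjusted p = 0.0934 to 0.331). A member without a gene name, matched to L-amino-acid oxidase of a snake (MGP_C57BL6NJ_G0018739, chromosome 11 from 59750181 to 59772196) had 3 and 0 counts with PBS, 19 and 17 with LD-F1_b EVs, and 31 in each LD-F1 library. The ratio to PBS was 23.5 (95% interval 7.69 to 117) and 13.0 (4.1 to 65.9), again as a description. Bcl2a1, an inhibitor of cell death, stood at 5.61 and 9.07 CPM with PBS, 17.2 and 13.5 with LD-F1_b EVs, and 22.6 and 28.0 with LD-F1 EVs. It rose by 1.78 ± 0.22 (adjusted p = 0.000128) and 1.06 ± 0.23 (adjusted p = 0.0101, lost without PBS replicate 1 or either LD-F1_b library), and belongs to a cluster of near-identical genes, so its reads are uncertain.

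Glycolysis had 5 members, of which 3 rose with LD-F1 EVs, or 1 with library totals alone or without any 1 of the PBS or LD-F1_b libraries. Pgk1, the first enzyme of the pathway to yield ATP, was the call that remained in each of these. It stood at 1060 and 1120 CPM with PBS, 1630 and 1640 with LD-F1_b EVs, and 1680 and 1920 with LD-F1 EVs. It rose by 0.73 ± 0.09 (adjusted p = 0.000111) and 0.59 ± 0.09 (adjusted p = 0.00114), and its entry held 90.9% of the counts described as Pgk1. The others were Eno1 at 0.30 ± 0.08 and Gapdh at 0.31 ± 0.10 (adjusted p = 0.0252 and 0.0378). For comparison, 11.4% of all genes tested were higher with LD-F1 EVs.

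Of 22 members of the ubiquitin and proteasome class, 3 rose and 0 fell with LD-F1 EVs, and the share higher was near the 11.4% of all genes. Ubb, which encodes ubiquitin itself in tandem copies, stood at 308 and 316 CPM with PBS, 376 and 459 with LD-F1_b EVs, and 463 and 495 with LD-F1 EVs. It rose by 0.62 ± 0.10 with LD-F1 EVs (adjusted p = 0.000892) and by 0.42 ± 0.10 with LD-F1_b EVs (adjusted p = 0.0184), the latter lost without either PBS library or LD-F1_b replicate 2. Of 17 members of translation and protein targeting, 5 rose with LD-F1 EVs, 2 without either PBS library, among them the ribosomal protein gene Rpl3 (0.45 ± 0.08, adjusted p = 0.00173) and Srp54, of the particle that directs proteins to the endoplasmic reticulum (0.62 ± 0.12, adjusted p = 0.00231). The Srp54 entry held 48.0% to 78.8% of the counts so described. Rpl3 had an adjusted p of 0.0569 without PBS replicate 2. Among 22 members of the cytoskeleton and membrane traffic 3 rose and 2 fell, again near the shares of all genes. Actr3, a subunit of the actin-branching complex, rose by 0.52 ± 0.08 (adjusted p = 0.000596). Ahnak, a giant scaffold protein, fell by 0.84 ± 0.16 (adjusted p = 0.00293), in an entry only 1046 bases long. With 1 library left out, the change in Ahnak ran from -1.17 to -0.58. Ahnak was also called lower with LD-F1_b EVs, at -1.08 to -0.9 with 1 library left out, and lost that call without either LD-F1_b library. Of other classes, the membrane protein gene Tmem94 fell by 0.93 ± 0.14 with LD-F1 EVs (adjusted p = 0.000618). With LD-F1_b EVs Tmem94 was called lower too, at -0.88 to -0.53 with 1 library left out. That call ended without either PBS library or LD-F1_b replicate 1. Gpld1, a phospholipase that cuts lipid anchors, fell by 0.92 ± 0.26 with LD-F1 EVs (adjusted p = 0.0239, lost without PBS replicate 1, LD-F1 replicate 2 or either LD-F1_b library). Among 20 members with no matched protein, which had 61 to 29230 counts, 1 rose and 1 fell. MGP_C57BL6NJ_G0030043 (chromosome 5 from 75440708 to 75480155) stood at 41.4 and 38.7 CPM with PBS, 74.8 and 70.7 with LD-F1_b EVs, and 88.5 and 88.0 with LD-F1 EVs (1.14 ± 0.10, adjusted p = 6.97e-06, and 0.86 ± 0.10, adjusted p = 0.000161). MGP_C57BL6NJ_G0031968 fell by 0.43 ± 0.11 with LD-F1 EVs (adjusted p = 0.0151), a call that ended without either PBS library.

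**Figure D3:**
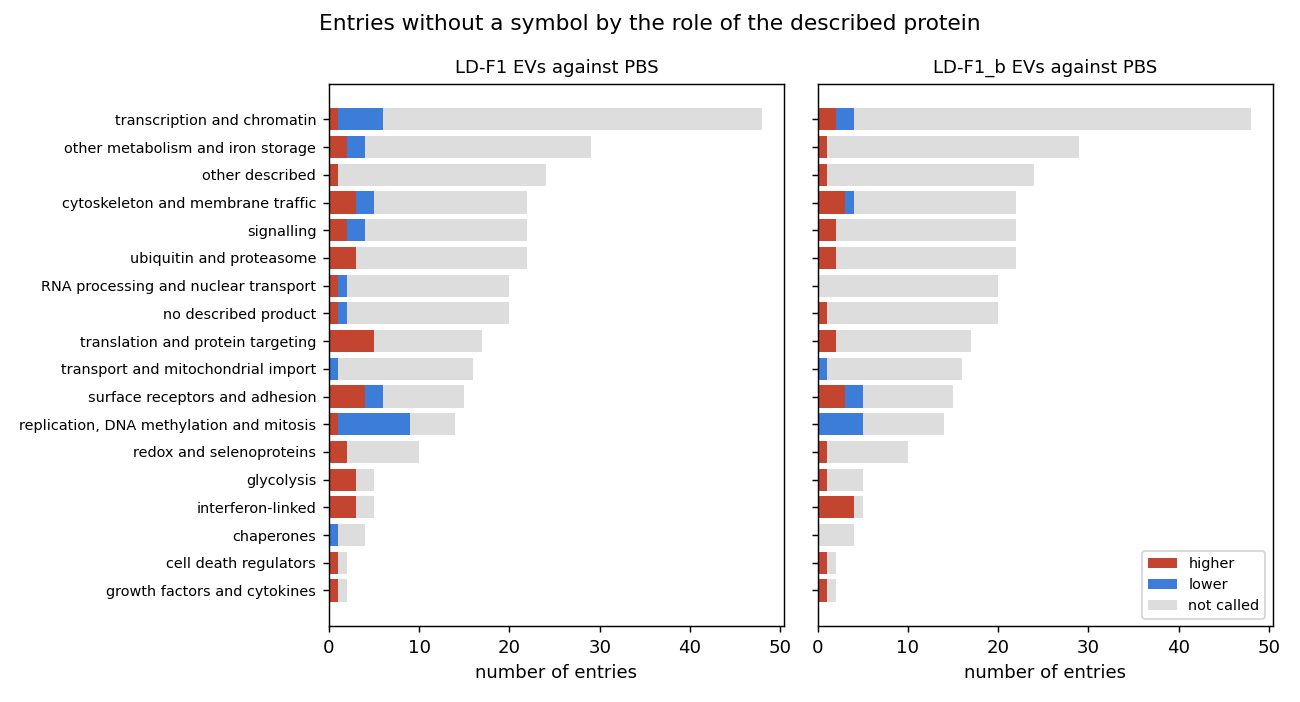
Number of members (horizontal axis) by the role of the described protein, with LD-F1 EVs (left) and LD-F1_b EVs (right) against PBS. Red parts were called higher, blue parts lower and grey parts not called, and the replication row has 8 of 14 lower on the left and 5 of 14 on the right.

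The 238 members not called with LD-F1 EVs had log2 fold changes from -1.75 to 1.37, and the 143 of them with a mean of at least 10 CPM from -0.46 to 0.43. Several very abundant genes were among these. Hspa8, the constitutive chaperone of the HSP70 family and the most abundant member by CPM, stood at 2590 and 2530 CPM with PBS and 3080 and 2630 with LD-F1 EVs (0.16 ± 0.11, adjusted p = 0.343). Ptma, which encodes prothymosin alpha, stood at 815 and 907 CPM with PBS and 769 and 857 with LD-F1 EVs, with overlap. Per kilobase, high levels over the 6 libraries were those of Ftl1, a ferritin chain (1340 CPM per kilobase), the elongation factor Eef1a1 (1210), Pgk1 (713) and Hspa8 (645).

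With LD-F1_b EVs, 25 members were higher and 11 lower than with PBS. These 36 were 12.1% of the members against 11.0% of all genes tested, and by direction 8.42% and 3.7% against 6.44% and 4.54%. Fpr2, MGP_C57BL6NJ_G0018739 and Trim12a, among the 25, reached 60 counts only through the EV libraries, so that the rule itself favoured a rise. By a small margin this held for Upp1 too. Libraries did not overlap for 175 members (58.9%), against 60.4% of all genes. The comparison shares its PBS libraries with the one above. An unadjusted p under 0.05 was found for 76 members (25.6%), against 24.7% of all genes. Of the 36, 3 were not called with LD-F1 EVs: Trim12a, Hmga1, a chromatin architecture protein (0.75 ± 0.19, adjusted p = 0.0362), and Mia3, of secretory cargo loading (0.30 ± 0.08, adjusted p = 0.0391). Hmga1 lost its call without 5 of the 6 libraries in turn and Mia3 without any 1 of the PBS or LD-F1_b libraries. The Hmga1 entry held 43.0% of the counts so described, with 40.9% and 31.1% for PBS and 53.0% and 44.3% for LD-F1_b EVs. Summed over all entries described as Hmga1, the CPM was 437 and 431 with PBS and 540 and 545 with LD-F1_b EVs. With library totals alone the split was 20 higher and 19 lower. A fit with these groups alone called 73, and leaving out a PBS or LD-F1_b library left 14 or 15.

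The direct comparison of the EV groups called 0 of 297 members by edgeR, against 0.424% of all genes tested (0.0157% higher and 0.408% lower with LD-F1_b EVs). An unadjusted p under 0.05 was found for 21 members (7.07%), against 8.78% of all genes. DESeq2 called 3: Vegfa (-0.50, LD-F1_b against LD-F1, adjusted p = 0.0435), Uhrf1 (0.50, adjusted p = 0.00747) and Mndal (-0.78, adjusted p = 0.0203). The edgeR values for the same members were -0.50 ± 0.11 (adjusted p = 0.102), 0.50 ± 0.10 (adjusted p = 0.0549) and -0.78 ± 0.16 (adjusted p = 0.0549). With no filter on low counts edgeR called 5, these 3 with Clspn (0.51) and Bcl2a1 (-0.72). Libraries of the EV groups did not overlap for 101 members (34.0%), against 34.0% of all genes. Without LD-F1 replicate 1 or 2, 28 or 10 members were called, and the LD-F1 replicates differed more: the median absolute log2 difference between replicates over the members was 0.11 for PBS, 0.16 for LD-F1_b and 0.2 for LD-F1. The signed log2 difference, replicate 2 minus replicate 1, correlated with gene length at Spearman's rho of -0.03, -0.14 and -0.20, in the same order. These correlations are across the 297 members, which are not independent replicates.

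**Figure D4:**
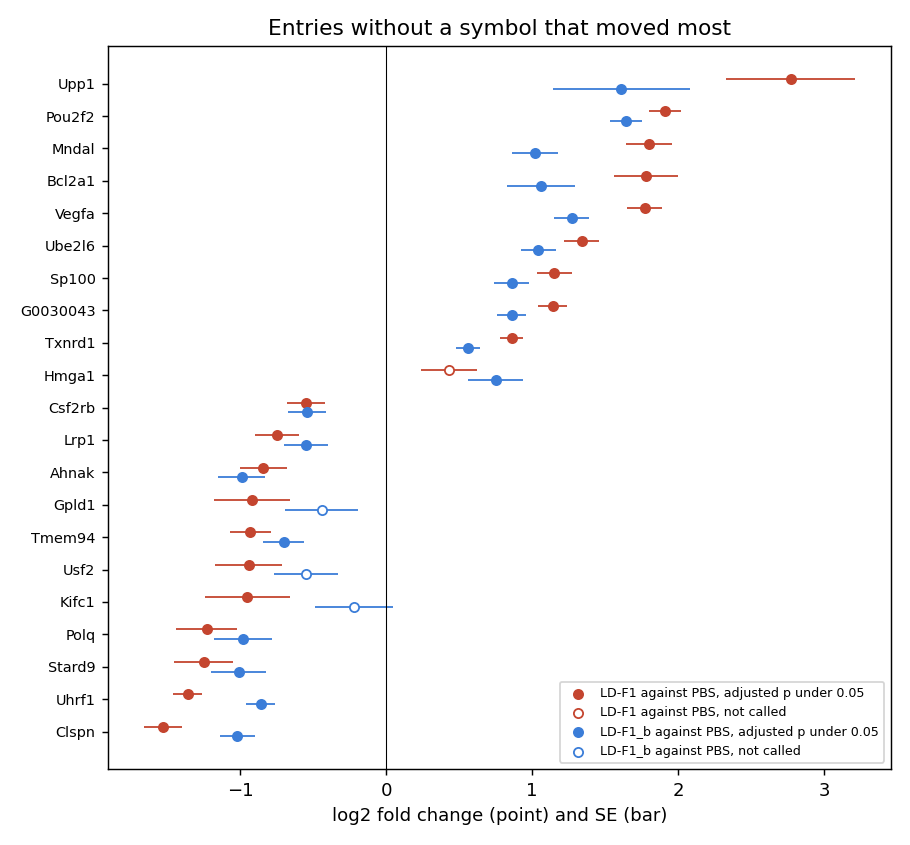
Log2 fold change against PBS (points, with SE as bars) of the members named by rule and Txnrd1, with LD-F1 EVs (red) and LD-F1_b EVs (blue). Filled points passed an adjusted p of 0.05, and open points did not. Upp1 has the highest value (2.77) and Clspn the lowest (-1.53), both with LD-F1 EVs. The selection of Upp1 favoured a rise.

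Many members share their description with other entries, which bears on how far a value stands for the gene. Of the 274 members with a gene name, 129 had at least 1 other entry described as the same gene with counts, and 145 had none. For 79 of the 129 the member held under 90% of the summed counts, and for 38 under 50%. Vegfa, Clspn, Polq, Ube2l6 and Lrp1 were the only entries with counts for their gene, and Uhrf1 held 98.5%. Gapdh, the glycolytic enzyme often used as a reference gene, held 37.8%, with 73 other entries of which 68 were pseudogenes. Its share ranged from 34.9% to 43.2% between libraries. Ftl1 held 42.1% in a narrow range of 41.6% to 42.6%, and Actr3 held 59.5%, the rest lying in 1 pseudogene. Gpi held 15.5%, and that entry lies on chromosome 8 and is 1413 bases long, apart from the entry with the symbol Gpi1 on chromosome 7.

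The share was unsteady for some members. Eef1a1, the translation elongation factor, held 35.8% and 47.5% in the PBS libraries, 29.3% and 43.4% with LD-F1_b EVs, and 31.7% and 31.4% with LD-F1 EVs. Its counts were 19996 and 34669, 16722 and 29918, and 16050 and 20274 in that order, so the 2 libraries of a group could differ widely, while the CPM summed over all entries so described ran from 3650 to 4760. His3.3A, a variant histone H3, held 14.1% and 8.01%, 5.85% and 6.7%, and 15.0% and 5.73%, on 624 and 349, 247 and 282, and 651 and 268 counts. In the share of His3.3A the LD-F1 libraries were both the highest and the lowest of the 6. Besides shared descriptions, 83 members overlap another entry with at least 60 counts, 37 on the same and 52 on the opposite strand. The sources used here give neither the strand setting of the counting nor the treatment of reads with several matches, so such values are uncertain. How far this entered any fold change was not tested.

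**Figure D5:**
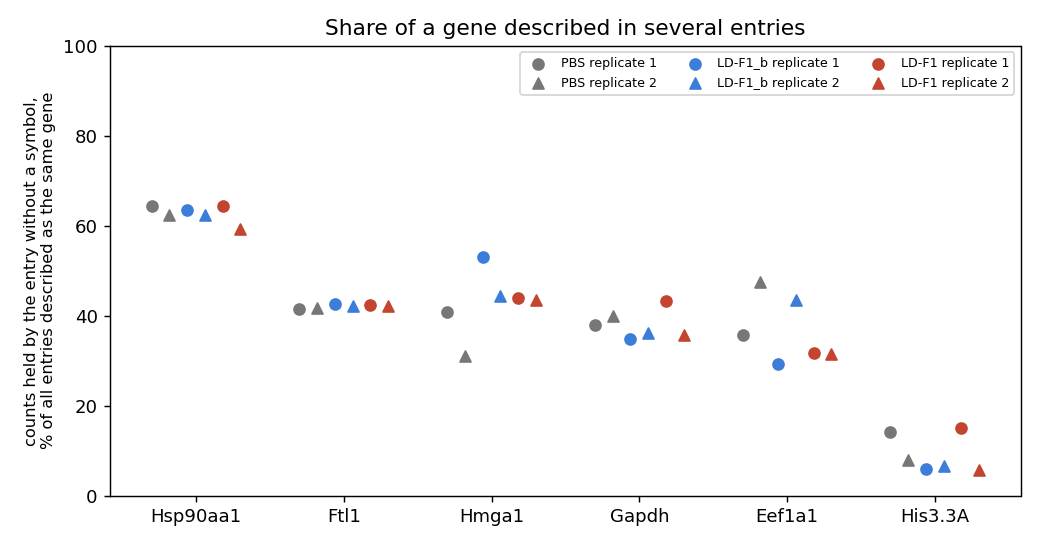
Counts held by the member, in percent of the counts of all entries described as the same gene (vertical axis), for 6 genes. Circles are replicate 1 and triangles replicate 2 of PBS (grey), LD-F1_b (blue) and LD-F1 (red). Ftl1 stays within 41.6% to 42.6%, while Eef1a1 runs from 29.3% to 47.5%.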

How the data were processed

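The authors deposited 1 table of raw read counts per gene for the 6 libraries, the only unit used here. Per the submitters' processing notes, which give no order or role, the tools were featureCounts 1.5.0-p3, StringTie 1.3.3b, HISAT2 2.0.5 and fastp and the build was GRCm39, while the identifiers and positions are those of the C57BL/6NJ annotation. Libraries held 13722215 to 15277997 counts. All 6 count columns matched a library (0 unmatched), and 0 rows lacked an identifier.

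Genes were filtered with filterByExpr, scaled by TMM and tested in edgeR 4.0.16 (R 4.3.3) by quasi-likelihood F tests, in 1 fit over the 3 groups with 3 residual degrees of freedom. P-values were adjusted by Benjamini-Hochberg over all 12740 genes tested, with a threshold of 0.05. SEs were computed from the log2 fold change and F. CPM uses TMM-scaled totals. Ratios of genes with few counts carry exact 95% intervals. The scripts were tested on simulated data.

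Members and gene lists were chosen with earlier results of these data known. Roles were assigned by hand after values were seen, because keyword classes left 127 members unclassed. Genes given with the rule were named, and the 8 highest and 8 lowest called fold changes per comparison at 2 CPM or more without overlap. So were the 10 most abundant members and examples of each role, not all with every value. The others named were chosen after their values were seen. Alternatives were other scalings, no filter, only the groups compared, a replicate block, DESeq2 1.42.0, each library left out, and a minimum of 200 counts. Some results are not reported here.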

Additional observations from a re-analysis of the deposited data

How the results depend on the processing

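Of the 59 members called with LD-F1 EVs, 26 kept their call under every refit of the test, and 10 of the 36 called with LD-F1_b EVs did: Clspn, Gp49a, MGP_C57BL6NJ_G0030043, Mndal, Pgk1, Pou2f2, Sp100, Ube2l6, Uhrf1 and Vegfa. No called member changed sign in these refits. A minimum of 200 counts in place of 60 left 56, 32 and 0 members called in the 3 comparisons. The calls that dropped out were Upp1, Fpr2 and MGP_C57BL6NJ_G0018739 with both EV preparations and also Trim12a with LD-F1_b EVs. With LD-F1 EVs the count of members called ran from 29 (without PBS replicate 1) to 98 (without LD-F1 replicate 1), and was 53 with DESeq2, 61 with DESeq2-style size factors, 64 with library totals alone, 74 with no filter and 42 with only the groups compared. With LD-F1_b EVs it ran from 14 to 73 over the libraries left out and was 73 with only the groups compared, 32 with DESeq2 and 44 with no filter. Between the EV groups it was 0 to 28 over the libraries left out, 5 with no filter and 3 with DESeq2. With library totals alone, 39.1% of LD-F1 calls were higher against 57.6%, and 51.3% of LD-F1_b calls against 69.4%. As a share of counts in coding entries, the members took 3.17% with LD-F1 EVs, 3.19% with LD-F1_b EVs and 3.21% with PBS. When a library is left out, its group holds 1 sample that is assumed to vary like the others. The causes of these shifts were not tested.

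Same-numbered replicate differences correlated at 0.128 (LD-F1 and LD-F1_b), -0.0187 (LD-F1 and PBS) and -0.0472 (LD-F1_b and PBS) over 8998 genes. Whether the replicate numbers pair the samples is not stated, and these correlations cannot settle it. With the replicate number as a block 62, 33 and 0 members were called in the 3 comparisons.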
